A study of Mus musculus with 28 samples.

Results

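The second 12 h of muscle differentiation in C2C12 cells was examined by comparing RNA-seq libraries made after 24 h in differentiation medium with libraries made after 12 h. The comparison uses 6 of the 18 RNA-seq libraries in a series of 28 samples, 3 at each time, and takes in every gene of the deposited count table. C2C12 is an immortalised mouse myoblast line, labelled wild type, and all 6 libraries come from this line, so the results describe 1 cell line in culture. Cells had been grown in 20% fetal bovine serum, and at 90% confluence the medium was exchanged for DMEM with 3% horse serum. All cells at 12 h and 24 h had therefore left growth medium. The libraries were strand-specific and made from total RNA. Replicates are called biological in the labels, which say nothing of separate cultures. The fit shares 1 estimate of spread over all 18 RNA-seq libraries. The p-values therefore reflect the spread among replicates of those 18 libraries alone, and it may be technical.

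Myoblasts that lose serum mitogens leave the cell cycle and pass through a cascade of muscle transcription factors. Myod1 and Myf5 mark committed myoblasts, Myog marks the start of terminal differentiation, and Myog acts with the Mef2 factors on genes of the sarcomere, of calcium handling and of cell fusion. In many cell types the SREBP factors switch on cholesterol and fatty acid synthesis when sterols run low, and ATF4 switches on amino acid synthesis and uptake when amino acids run low or the integrated stress response is active. The question addressed here is which genes changed between 12 h and 24 h, and how that change compares with the first 12 h in the same medium.

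Library totals were 34387549 to 36405121 counts at 12 h and 28196227 to 34241145 at 24 h, and 15303 of 49089 genes had enough counts to be tested. Rn7s1 and Rn7s2, RNAs of the signal recognition particle, took 17.3% to 21.1% of all counts in the 6 libraries. Levels are given as CPM, which scales a gene's counts to the library total, after TMM scaling, changes as the log2 fold change of 24 h over 12 h ± the standard error (SE) of the fit, and a gene was called when its adjusted p from edgeR's quasi-likelihood test was under 0.05. The third 24 h library stood apart from the other 24 h libraries. Of 9131 protein-coding genes whose log2 CPM averaged 3 or more over the 6 libraries, it was at least 0.5 log2 units above both others in 84, while no other library of the 6 was so in more than 6. Without it, 7327 of the 8313 calls were made again in the same direction, 986 were lost, 287 were gained and 0 turned. Of 10 fibroadipogenic markers 8 could be tested and 6 rose, where 27.8% of all genes tested rose. Their summed level was 480 to 497 CPM at 12 h and 704 to 731 CPM at 24 h, while Tcf21 and Thy1 had no count in any of the 6 libraries. Immune markers summed to 1.17 to 1.35 CPM at 12 h and 1.93 to 2.04 CPM at 24 h, with Adgre1, Cd3e and Tyrobp among those at 0. Endothelial markers summed to 0.734 to 0.828 CPM at 12 h and 1.39 to 1.72 CPM at 24 h, with Cdh5, Emcn and Erg at 0. Adipocyte markers summed to 49.5 to 54.9 CPM at 12 h and 60.5 to 61.2 CPM at 24 h. Neural and Schwann markers summed to 75.9 to 91.6 CPM and then to 75.8 to 79.8 CPM. Bone and cartilage markers summed to 20.4 to 21.8 CPM and then to 19.9 to 27.6 CPM. In each of these 3 lists 3 members could be tested.

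Between 12 h and 24 h, 8313 genes were called (54.3% of those tested), of which 4258 rose (27.8%) and 4055 fell (26.5%). A change of at least 2-fold was seen in 733 of the genes that rose (4.79% of genes tested) and in 802 of those that fell (5.24%). Most calls were small. Of all calls, 62.8% were below 1.5-fold and 218 reached 4-fold. The median log2 change over all genes tested was 0.04, which is the value against which the medians of gene lists are set below. Bulk RNA cannot tell fewer cells that express a gene from less of its RNA per cell, and this holds for every change given here.

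**Figure D1:**
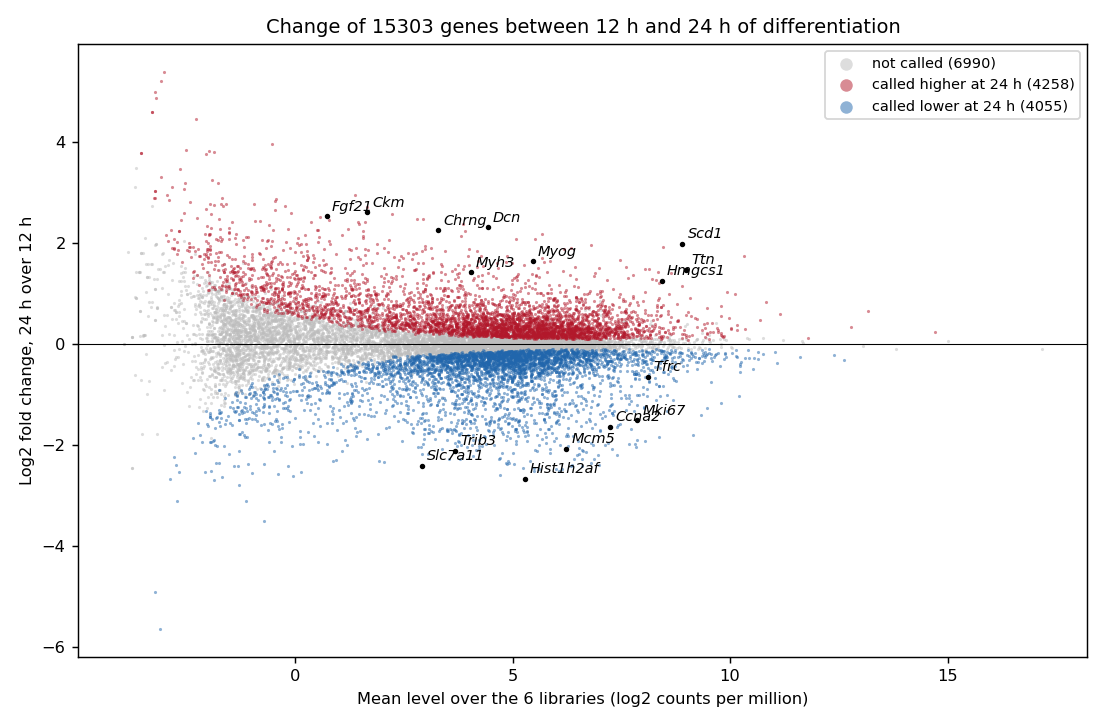
Log2 fold change of 24 h over 12 h (vertical axis) against the mean log2 CPM over the 6 libraries (horizontal axis), 1 point per gene tested, with 4258 genes called higher in red, 4055 called lower in blue and 6990 not called in grey. Labelled genes are described in the text. Of these, muscle and sterol genes lie above 0, and histone, replication and amino acid supply genes lie below it, except Fgf21, which lies above 0.

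The regulators of the muscle programme rose on the whole. Of 21 tested members of the list of myogenic factors, 16 rose, 2 fell and 3 were not called, with a median log2 change of 0.52. Myog, which drives terminal differentiation, stood at 27.9, 24.5 and 22.5 CPM in the 12 h libraries and at 77.4, 80.4 and 75.2 CPM in the 24 h libraries. Every 24 h library was above every 12 h library. The log2 change was 1.64 ± 0.06 (edgeR adjusted p = 5.84e-15). Myod1, the master regulator of the lineage, stood at 27.8, 26.9 and 23.0 CPM at 12 h and at 41.5, 37.1 and 37.9 CPM at 24 h. It rose by less than Myog, with a log2 change of 0.58 ± 0.07, and the groups did not overlap. Rbm24, an RNA-binding protein that governs muscle splicing, rose by 1.90 ± 0.12 on the log2 scale, and Smyd1, a methyltransferase needed for sarcomere assembly, by 1.03.

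Mef2c, the Mef2 gene most tied to differentiating muscle, did not follow. Its 12 h libraries stood at 4.77, 5.40 and 6.42 CPM and its 24 h libraries at 5.11, 5.83 and 6.14 CPM, so the groups overlapped. The log2 change was 0.04 ± 0.11 (edgeR adjusted p = 0.776). Mef2a rose by 0.84 and Mef2d by 0.44 on the log2 scale. Tcf3, which encodes the E proteins that pair with Myod1, fell by 0.43 on the log2 scale. Its relatives Tcf4 and Tcf12 rose, with log2 changes of 1.04 and 0.55. Myf5 had a log2 change of -0.17, called with all libraries and not called without the third 24 h library (edgeR adjusted p = 0.084).

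Of 18 tested Id and Notch genes 8 rose and 6 fell (median log2 change 0.13). Of the genes for Id proteins, which bind E proteins and keep them from Myod1, 3 fell and 1 was not called. Id1 stood at 31.8, 31.1 and 27.9 CPM at 12 h and at 13.3, 13.7 and 12.1 CPM at 24 h, a log2 change of -1.21 ± 0.09 with no overlap of the groups. Id2 and Id3 fell, with log2 changes of -0.97 and -0.87. Id4 had a log2 change of -0.56 and was not called. Of the Notch genes, which hold muscle progenitors undifferentiated, the ligand Dll1 rose from 3.59, 4.46 and 3.74 CPM to 12.6, 15.3 and 14.5 CPM, a log2 change of 1.84 ± 0.10. The receptors Notch2 and Notch3 and the target Heyl rose as well, with log2 changes of 0.83, 0.76 and 1.34. Nrarp, a feedback inhibitor induced by Notch signalling, fell by 1.02, and the target Hes1 had a log2 change of -0.11 and was not called.

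**Figure D2:**
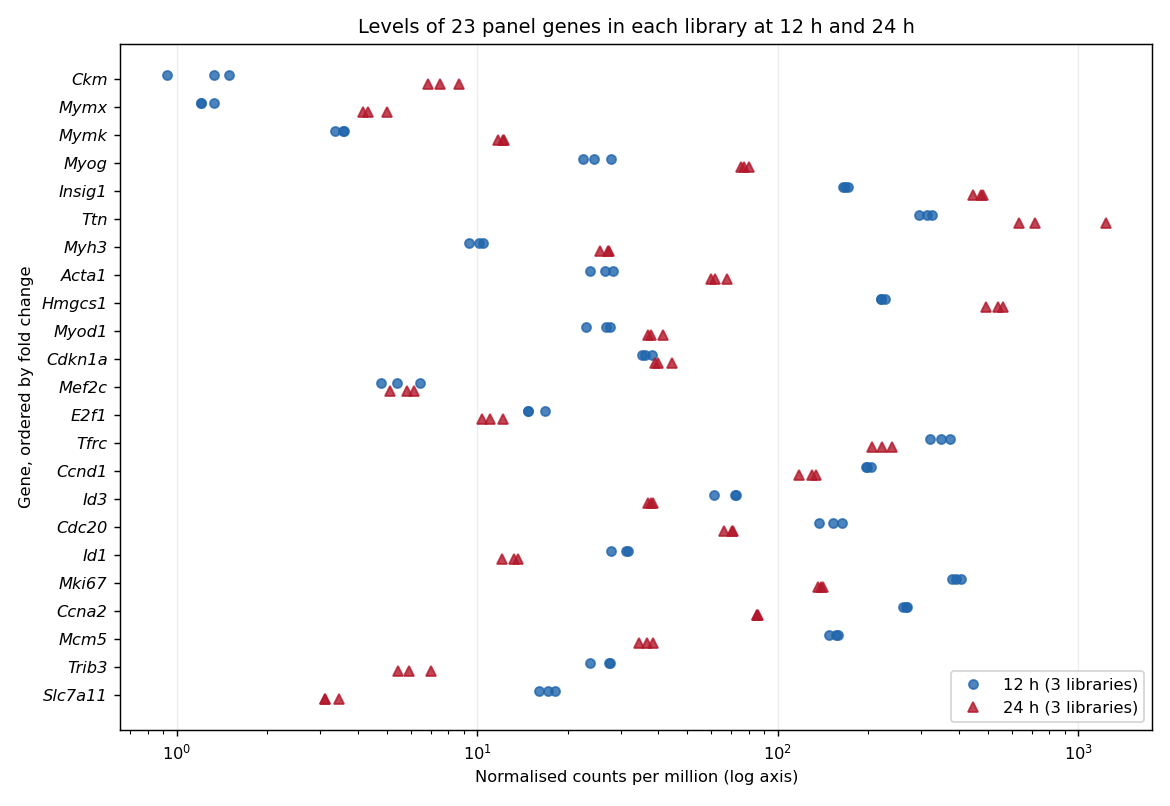
Levels of 23 panel genes in each library, as normalised CPM on a log axis, with 12 h libraries as blue circles and 24 h libraries as red triangles; genes are ordered by fold change. Ckm, Mymx, Mymk and Myog are at the top and Trib3 and Slc7a11 at the bottom; the Mef2c points overlap, and the third Ttn triangle lies at 1232 CPM against 637 and 717 CPM in the other 24 h libraries.

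Genes of the contractile apparatus rose together. Of 15 tested myosin heavy and light chain genes 12 rose and 0 fell (median log2 change 1.12). Of 18 genes for troponins, actins and tropomyosins 15 rose and 1 fell (median 1.33). Of 32 genes for the Z-disc, the M-band and titin 29 rose and 1 fell (median 1.16). Myh3, the embryonic myosin heavy chain, stood at 10.1, 9.35 and 10.4 CPM at 12 h and at 25.6, 27.4 and 27.2 CPM at 24 h, with a log2 change of 1.43 ± 0.08. The skeletal actin gene Acta1 stood at 28.3, 26.6 and 23.7 CPM and then at 61.9, 59.8 and 67.7 CPM, a log2 change of 1.27 ± 0.07. In neither gene did the groups overlap.

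Actc1, the cardiac actin that embryonic skeletal muscle also makes, had the largest log2 change of its list, 2.06 ± 0.12, and the slow troponin T gene Tnnt1 and the fast troponin T gene Tnnt3 followed with 1.90 and 1.84. Tpm3, a tropomyosin gene also used outside muscle, fell by 0.33 on the log2 scale. Among heavy chains, the fast gene Myh4 had a log2 change of 2.04 and the slow gene Myh7 of 1.73, from levels below 1 CPM at 12 h. Myh2, the fast oxidative heavy chain, had a log2 change of 0.19 and was not called. Unc45b, the chaperone that folds myosin heads, rose from 0.790, 0.534 and 0.437 CPM to 3.10, 3.51 and 3.47 CPM, a log2 change of 2.52 ± 0.20. Mybpc2 had no count in any 12 h library and at most 0.099 CPM at 24 h, so no fold is given for it.

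Ttn, which encodes the giant spring of the sarcomere, stood at 314, 295 and 325 CPM at 12 h and at 717, 637 and 1232 CPM at 24 h. All 24 h libraries were higher than all 12 h libraries, and the third stood far above the others. Its log2 change was 1.47 ± 0.15, and 1.11 without that library. Des, the intermediate filament gene of muscle, rose by 0.56 on the log2 scale.

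Genes that couple excitation to contraction rose, with 21 of 25 tested members of the calcium store and triad list higher, 0 lower and a median log2 change of 1.05. Hrc, a calcium-binding protein of the sarcoplasmic reticulum, had the largest log2 change of the list, 2.15 ± 0.12. Cacna1s, the voltage sensor of the triad, rose by 2.04 and Ryr1, the release channel, by 1.57. Atp2a1, the fast muscle calcium pump, stood at 3.75, 3.39 and 3.58 CPM at 12 h and at 11.6, 9.57 and 13.3 CPM at 24 h, without overlap. Stim1 and Orai1, the sensor and channel of store-operated calcium entry that many cells use, had log2 changes of -0.19 and 0.08 and were not called.

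The gamma subunit gene of the acetylcholine receptor, Chrng, rose most of the genes of the neuromuscular junction. This subunit belongs to the fetal form of the receptor. Chrng stood at 4.63, 4.38 and 4.37 CPM at 12 h and at 21.3, 19.5 and 23.1 CPM at 24 h. The groups lay far apart, and the log2 change was 2.25 ± 0.09 (edgeR adjusted p = 3.56e-15). The alpha and delta subunit genes Chrna1 and Chrnd each rose by 0.61, Chrnb1 rose by 0.31, and 9 of 11 tested junction genes rose while 0 fell. Agrn, the nerve-derived organiser of the junction, had a log2 change of -0.04 and was not called. The 250 bases upstream of the Chrng start site hold CAGCTG, an E-box of the kind bound by Myod1 and Myog, at positions -155 and -132 counted to its first base. They are shown because Chrng is the junction gene with the largest rise, with the E-boxes in capitals (RefSeq, GRCm38.p6, chr1:87205561-87205810, plus strand).
Chrng: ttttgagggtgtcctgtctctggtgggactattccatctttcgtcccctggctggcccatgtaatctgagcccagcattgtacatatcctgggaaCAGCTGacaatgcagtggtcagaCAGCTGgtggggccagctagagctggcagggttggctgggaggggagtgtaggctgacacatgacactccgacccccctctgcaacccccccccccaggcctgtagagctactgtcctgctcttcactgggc
CAGCTG reads the same on both strands and occurs in 13.0% of the 32851 windows of this length in the promoter table and in 14.7% of the 10068 tested genes with an entry. Of the tested contractile and junction genes 74.3% had an entry there, under the 80% needed, so a share over those lists is void and is not given.

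Fusion genes divided. Mymk and Mymx encode myomaker and myomixer, the muscle membrane proteins that merge myoblasts. Mymk stood at 3.59, 3.61 and 3.36 CPM at 12 h and at 12.2, 11.8 and 12.3 CPM at 24 h, a log2 change of 1.78 ± 0.10. Mymx stood at 1.33, 1.20 and 1.20 CPM and then at 5.01, 4.33 and 4.16 CPM, a log2 change of 1.85 ± 0.13. Neither gene's groups overlapped. Of 24 tested fusion genes 17 rose and 2 fell, and the median log2 change was 0.24. Adhesion genes such as Cdh15 (0.36), Cd9 (0.24) and Ncam1 (0.27) had small log2 changes. Cdon, a receptor that promotes myogenesis, rose by 1.01. Adam12, a metalloprotease of fusing myoblasts, fell by 1.02 on the log2 scale, and Itgb1 fell by 0.18.

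Of 20 tested genes for the muscle forms of enzymes and transporters of energy supply, 15 rose and 3 fell (median log2 change 0.76). Ckm, the muscle creatine kinase, stood at 1.33, 1.50 and 0.929 CPM at 12 h and at 7.51, 6.85 and 8.71 CPM at 24 h. The groups did not overlap, and the log2 change of 2.61 ± 0.16 was the largest of the 24 panel genes. Pygm, the muscle glycogen phosphorylase, rose by 2.65 and Pgam2, the muscle phosphoglycerate mutase, by 2.01. The table holds Pygm on 2 rows with different identifiers, so its reads may be split. Against this direction, Slc2a4, the insulin-responsive glucose transporter, and Cox6a2, a muscle cytochrome oxidase subunit, fell, with log2 changes of -1.08 and -0.87, both from levels of about 1 CPM or less. The muscle enolase gene Eno3 fell by 0.14. Of 23 glycolytic genes 15 rose and 0 fell (median log2 change 0.26), led by Aldoc, an aldolase best known from brain, with 2.58. Gapdh and Ldha had log2 changes of 0.10 and 0.09 and were not called.

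Genes of DNA replication, repair, mitosis and histone supply fell together. All 48 genes of the DNA replication list fell, with a median log2 change of -1.55. All 42 genes of the mitosis and kinetochore list fell (median -1.43), as did all 22 DNA repair genes (median -1.67) and all 37 tested members of the list of replication-dependent histones and their processing factors (median -2.19). The same direction was called in 26.5% of all genes tested. Without the third 24 h library, where more genes could be tested, the counts of genes that fell were 48, 42, 22 and 38.

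Mcm5, a subunit of the replicative helicase, stood at 159, 156 and 148 CPM at 12 h and at 34.6, 38.5 and 36.6 CPM at 24 h. The groups lay more than 4-fold apart at their means, with a log2 change of -2.07 ± 0.07 (edgeR adjusted p = 1.26e-15). Tk1, the salvage thymidine kinase of S phase, had a log2 change of -2.08, Fen1, the flap nuclease of lagging strand synthesis, of -1.95, and Pcna, the sliding clamp, of -1.39. The smallest falls of the list were in Rfc1 (-0.69), a clamp loader subunit, and Ung (-0.83), a repair glycosylase. Brca1, of homologous recombination, had a log2 change of -1.79, and the checkpoint kinase gene Chek1 of -1.93.

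Cyclin genes fell unequally. Ccna2, the cyclin of S and G2 phase, stood at 261, 266 and 269 CPM at 12 h and at 85.0, 85.5 and 85.9 CPM at 24 h, with a log2 change of -1.64 ± 0.04. Mki67, the proliferation marker, stood at 407, 381 and 392 CPM and then at 139, 136 and 142 CPM, a log2 change of -1.50 ± 0.05. In both genes the libraries of a group lay close together and the groups far apart. The E-type cyclins Ccne2 and Ccne1 fell, with log2 changes of -1.74 and -1.55, and Ccnd1, the D-type cyclin that answers to mitogens, had a log2 change of -0.65. Ccnd3, the D-type cyclin that stays on in muscle, rose by 0.27, and Cdk6 by 0.32. Of the 19 cyclin and kinase genes 17 fell and 2 rose.

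Cdc20, an activator of the anaphase-promoting complex, stood at 164, 153 and 137 CPM at 12 h and at 66.2, 70.6 and 71.1 CPM at 24 h, a log2 change of -1.13 ± 0.06 with no overlap. Its upstream sequence is shown because it carries TTTGAA, the cell cycle homology region element through which the DREAM and Foxm1 complexes act on late cell cycle genes, at -18 (capitals; RefSeq, GRCm38.p6, chr4:118437344-118437593, minus strand).
Cdc20: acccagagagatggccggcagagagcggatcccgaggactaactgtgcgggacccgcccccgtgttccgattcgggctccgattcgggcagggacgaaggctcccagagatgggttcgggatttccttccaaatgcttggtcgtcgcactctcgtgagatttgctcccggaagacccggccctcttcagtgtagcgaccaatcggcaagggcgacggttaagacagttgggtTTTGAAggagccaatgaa
Of the 42 mitosis genes 36 had an entry in the promoter table, and 10 of these (27.8%) held TTTGAA on either strand, against 16.0% of all windows and 12.6% of the 10068 tested genes with an entry. CCAAT, the element bound by NF-Y, was in 25 of the 36 (69.4%), against 33.8% of all windows and 40.8% of tested genes with an entry. It was also in 14 cholesterol synthesis genes, from a list that had too few entries for a share and in which every gene rose. Of the 48 replication genes 39 had an entry, and 7 of these (17.9%) held the E2F-type sites TTTCCCGC or TTTGGCGC, against 1.3% of all windows and 2.86% of tested genes with an entry. These are matches of letters on either strand, with no measurement of binding, and the motifs were chosen with the changes known.

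Of 16 E2F and DREAM factor genes 11 fell and 0 rose (median log2 change -0.40). Mybl2 fell by 2.08 and Foxm1 fell by 1.50 on the log2 scale. E2f7 and E2f8, the atypical repressor E2Fs, had log2 changes of -1.67 and -0.99. E2f1, the classical activator, stood at 16.8, 14.7 and 14.8 CPM at 12 h and at 11, 12.2 and 10.4 CPM at 24 h, a smaller fall with a log2 change of -0.46 ± 0.08. The repressor E2f4, the activators E2f2 and E2f3 and the DREAM subunit Lin37 had log2 changes of 0.08, 0.06, 0.04 and -0.04 and were not called. Of 15 CDK inhibitors and related genes 8 rose and 3 fell. Cdkn1a, the p21 inhibitor that muscle cells use to leave the cycle, stood at 38.1, 36 and 35.3 CPM and then at 44.5, 40 and 39.2 CPM, a log2 change of 0.18 ± 0.05 with no overlap. Gadd45a rose by 0.88. The pocket protein gene Rbl1 and the inhibitors Cdkn2c and Cdkn2d fell, with log2 changes of -1.60, -1.37 and -1.19.

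Histone genes had the largest falls. At an average log2 CPM of 3 or more, the 15 genes that fell furthest were 14 replication-dependent histone genes and H2afx, a histone variant gene. Hist1h1b, a linker histone gene, stood at 296, 295 and 281 CPM at 12 h and at 55.9, 55.0 and 54.8 CPM at 24 h, a log2 change of -2.39 ± 0.04. Hist1h2af had the largest fall, from 117, 99.0 and 77.9 CPM to 18.1, 13.3 and 15.3 CPM, a log2 change of -2.66 ± 0.13. Its 12 h libraries were spread more widely than those of Hist1h1b. Core histone genes are near-identical copies, so reads may be divided among them and single values are uncertain. By RefSeq (GRCm38.p6), 30 of the listed histone genes with a position lie on chromosome 13 between 21750145 and 23764412, and their log2 changes ran from -2.66 to -1.51. Slbp, which binds and protects histone mRNA, fell by 1.10, less than the histone genes it serves.

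Genes of chromosome structure and of the nucleus took both directions. Of 23 condensin and cohesin genes 17 fell and 4 rose, and without the third 24 h library 1 rose. Esco2, which acetylates cohesin in S phase, fell by 2.15 on the log2 scale, and Ncapg and Smc2, condensin subunits, had log2 changes of -1.63 and -1.61. The cohesin core genes Rad21, Smc3 and Smc1a, which also act outside division, fell, with log2 changes of -0.65, -0.40 and -0.74, and Stag2 had a log2 change of -0.03 and was not called. Of 29 polycomb, DNA methylation and lamin genes 17 fell and 8 rose (median -0.31). Lmnb1 and Lmnb2, the B-type lamins, had log2 changes of -1.31 and -1.06. Dnmt1, the maintenance DNA methyltransferase, fell by 1.35 and Ezh2, the polycomb methyltransferase of dividing cells, fell by 0.81. The Ezh2 relative Ezh1 and the DNA methyltransferase gene Dnmt3a rose by 0.56 and 0.49. The demethylase gene Tet3 rose by 0.53, or 0.29 without the third 24 h library. Of 25 cytoskeletal genes 15 fell and 8 rose (median -0.22). The tubulin genes Tuba1b and Tubb5 had log2 changes of -1.27 and -1.17, and the tubulin-binding Stmn1 of -1.36.

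**Figure D3:**
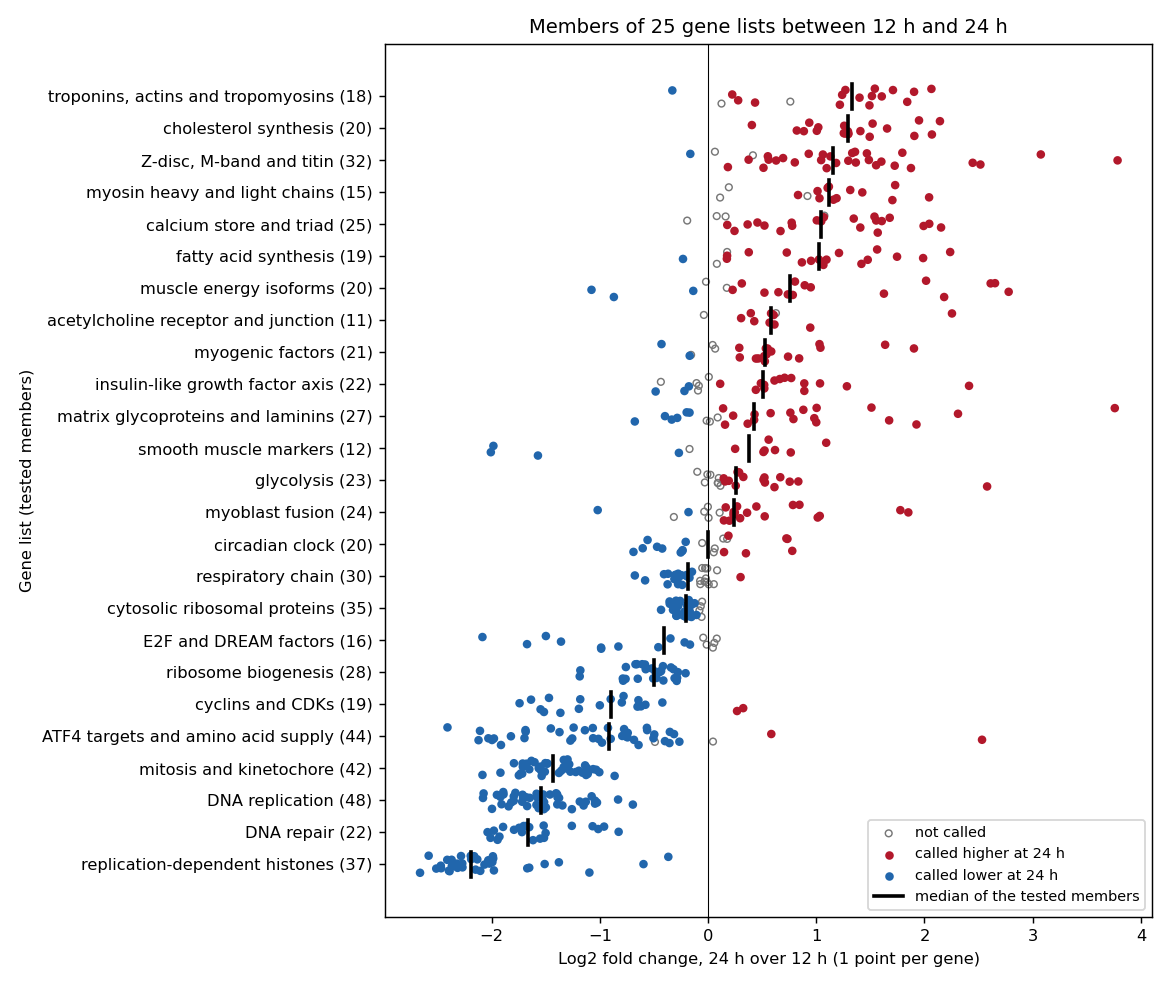
Log2 fold change of 24 h over 12 h for each tested member of 25 gene lists (number of members in parentheses), with filled points for called genes (red higher, blue lower), open points for genes not called and a black bar at the median. The lists run from a median of -2.19 for replication-dependent histones to 1.33 for troponins, actins and tropomyosins; every DNA replication, mitosis, repair and histone point is blue and every cholesterol synthesis point is red. Members at fewer than 1 CPM are included, and their values are the least certain.

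Cholesterol synthesis rose as a whole pathway. All 20 genes rose, with a median log2 change of 1.29, where 27.8% of all genes tested rose. Hmgcs1, the synthase that makes HMG-CoA, stood at 221, 220 and 227 CPM at 12 h and at 539, 562 and 492 CPM at 24 h. The groups did not overlap, and the log2 change was 1.25 ± 0.06 (edgeR adjusted p = 8.29e-14). The largest rises were late in the pathway or at the mevalonate decarboxylase, with log2 changes of 2.14 for Tm7sf2, 2.07 for Mvd, 1.95 for Lss and 1.91 for Nsdhl, and the smallest was 0.40 for the isomerase Ebp.
The sequence upstream of Hmgcs1 is shown because it holds TCACNCCAC, the core of the sterol regulatory element to which SREBP binds, at -137 (capitals; RefSeq, GRCm38.p6, chr13:119690101-119690350, plus strand).
Hmgcs1: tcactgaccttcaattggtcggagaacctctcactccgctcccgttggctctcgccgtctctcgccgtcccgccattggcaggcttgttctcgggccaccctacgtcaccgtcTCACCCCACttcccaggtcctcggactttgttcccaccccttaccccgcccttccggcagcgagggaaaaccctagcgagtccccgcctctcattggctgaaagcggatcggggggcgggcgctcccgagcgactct
On either strand this motif was in 1.05% of all windows and 1.23% of tested genes with an entry. Of the pathway's 20 genes 15 (75.0%) had an entry, too few for a share.

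Regulators and transporters of sterol moved with the pathway for the most part. Insig1, which holds SREBP back when sterol is plentiful, stood at 171, 167 and 165 CPM at 12 h and at 475, 481 and 447 CPM at 24 h, a log2 change of 1.48 ± 0.05. The groups did not overlap. The factor genes Srebf1 and Srebf2 rose by 0.59 and 0.56. Abca1 and Abcg1, which export cholesterol and are known LXR targets, rose too, by 2.42 and 1.11. Of 23 tested genes 17 rose and 4 fell, among them the receptor genes Lrp8 and Scarb1, with log2 changes of -0.44 and -0.36.

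Fatty acid synthesis rose alongside, with 16 of 19 tested genes higher, 1 lower and a median log2 change of 1.02. Scd1, the desaturase that makes oleate, stood at 235, 243 and 241 CPM at 12 h and at 965, 940 and 950 CPM at 24 h. The libraries of each time were nearly alike and the times about 4-fold apart, with a log2 change of 1.99 ± 0.04. Acss2, which makes acetyl-CoA from acetate, rose by 2.24 ± 0.08, Acly, which makes it from citrate, by 1.42, and Fasn, the synthase, by 1.21. Agpat2, of phospholipid synthesis, fell by 0.23.

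Amino acid supply genes and ATF4 targets fell. Of 44 tested members 40 fell, 2 rose and 2 were not called, with a median log2 change of -0.91. Slc7a11, the cystine importer, stood at 17.1, 16.1 and 18.1 CPM at 12 h and at 3.10, 3.12 and 3.47 CPM at 24 h. Every 24 h library lay below every 12 h library, and the log2 change was -2.41 ± 0.12 (edgeR adjusted p = 2.84e-13). Trib3, a stress-induced pseudokinase, stood at 27.4, 27.6 and 23.8 CPM and then at 5.91, 5.44 and 7.0 CPM, a log2 change of -2.11 ± 0.10. Asns, asparagine synthetase, fell from 227, 232 and 235 CPM to 60.6, 59.8 and 53.6 CPM. The serine synthesis genes Phgdh, Psat1 and Psph had log2 changes of -1.98, -1.25 and -1.82, and the mitochondrial folate enzymes Shmt2 and Mthfd2 of -2.12 and -1.69.
Atf4 itself fell by 0.36 at the RNA level, and its protein was not measured. The aminoacyl-tRNA synthetase genes Mars, Gars, Nars, Aars and Wars fell, with log2 changes from -1.24 to -0.90. Fgf21, a secreted hormone and ATF4 target, went the other way, from 0.649, 0.721 and 0.574 CPM to 3.81, 3.63 and 3.89 CPM, a log2 change of 2.53 ± 0.19. Vldlr rose by 0.58, and Slc38a2 had a log2 change of 0.05 and was not called.
The sequence upstream of Slc7a11 is shown because it holds TGATGNAA, the core of the amino acid response element through which ATF4 acts, once on each strand, at -66 and at -47 (capitals; RefSeq, GRCm38.p6, chr3:50443614-50443863, minus strand).
Slc7a11: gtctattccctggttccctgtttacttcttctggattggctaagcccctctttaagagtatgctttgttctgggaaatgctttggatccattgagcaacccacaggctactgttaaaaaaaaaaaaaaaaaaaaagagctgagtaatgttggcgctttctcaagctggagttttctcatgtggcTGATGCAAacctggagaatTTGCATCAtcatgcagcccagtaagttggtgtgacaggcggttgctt
On either strand the motif was in 3.45% of all windows and 2.39% of tested genes with an entry. Fgf21 and Asns hold it in their windows too, although Fgf21 rose and Asns fell. Of the 44 members 35 (79.5%) had an entry, too few for a share. Overlap with open chromatin was taken over the 300-base promoter windows that hold the printed 250 bases. In all 4 genes whose sequence is printed, this window overlapped a peak in the deposited ATAC-seq lists of both growth medium and 60 h. The same holds for 92.8% of the 10068 tested genes with an entry, so it does not set the 4 apart. ATAC-seq at 12 h and 24 h is not among the samples.

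Genes for making ribosomes fell by less. All 28 ribosome biogenesis genes fell (median log2 change -0.50), led by Nop56 and Dkc1, parts of the RNA-modifying particles of the nucleolus, with log2 changes of -1.19 and -1.18. Of 35 tested cytosolic ribosomal protein genes 31 fell and 0 rose (median -0.21), and the largest fall was a log2 change of -0.43 in Rpl8. Pseudogene copies of ribosomal protein genes can share their reads. Upper-quartile scaling moved the median of all genes up by 0.05, against this list's median of -0.21. Of 19 heat shock genes 12 fell and 2 rose, with the mitochondrial chaperonin genes Hspd1 and Hspe1 at log2 changes of -1.02 and -0.64. Of 30 respiratory chain genes 17 fell and 1 rose (median -0.18), with cytochrome c, Cycs, at a log2 change of -0.68.

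Matrix and secreted factor genes rose in the main. Dcn, the collagen-binding proteoglycan decorin, stood at 9.43, 9.88 and 9.57 CPM at 12 h and at 49.6, 46.3 and 47.4 CPM at 24 h. The groups lay about 5-fold apart, with a log2 change of 2.31 ± 0.07 (edgeR adjusted p = 2.47e-16). Ogn, a related small proteoglycan, had a log2 change of 1.93, Tgm2, a cross-linking transglutaminase, of 2.07, and Cp, the copper oxidase ceruloplasmin, of 2.18. Adamts4, which cleaves proteoglycans, rose by 1.88, and Sema3d, a secreted guidance factor, by 1.87. Of 27 matrix glycoprotein and laminin genes 18 rose and 6 fell (median 0.43), and of 27 collagen genes 17 rose and 5 fell (median 0.33). Hspg2, which encodes the basement membrane proteoglycan perlecan, stood at 140, 105 and 293 CPM at 24 h against 117, 97.5 and 95.8 CPM at 12 h. Its log2 change of 0.79 was called with all libraries, and the 0.23 without the third 24 h library was not (edgeR adjusted p = 0.102).

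The insulin-like growth factor axis, which promotes muscle differentiation and growth, had 14 of 22 genes higher and 3 lower (median log2 change 0.50). The ligand gene Igf1 stood at 0.480, 0.481 and 0.601 CPM at 12 h and at 3.17, 2.55 and 2.67 CPM at 24 h, a log2 change of 2.41 ± 0.18. The ligand Igf2 rose by 0.66 and the receptor Igf1r by 0.52, or 0.30 without the third 24 h library. Igfbp5, the binding protein abundant in this line, rose from 668, 682 and 707 CPM to 1408, 1316 and 1488 CPM, and Igfbp2 fell by 0.48 on the log2 scale. In none of the genes with values per library here did the groups overlap. Spry1, an inhibitor of growth factor signalling that quiescent satellite cells use, rose by 2.14. Of 28 tested early genes of growth factor signalling 12 rose and 8 fell (median log2 change 0.10), with 0.85 for Fos and 0.74 for Spry2 and with -0.75 for Etv4 and -0.64 for Fosl1.

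Smooth muscle markers split. Tagln, which binds actin in smooth muscle and in early skeletal differentiation, stood at 144, 133 and 132 CPM at 12 h and at 35.2, 34.9 and 31.5 CPM at 24 h, a log2 change of -2.01 ± 0.07. Cnn1 and Actg2, calponin and an enteric actin, had log2 changes of -1.98 and -1.57, while Mylk, the myosin light chain kinase, and Synpo2 rose by 1.09 and 0.76. Of 12 tested members 7 rose and 4 fell, so the list as a whole took no single direction, and its summed level was 1791 to 1902 CPM at 12 h and 1928 to 1999 CPM at 24 h. The 3 tested proliferin genes, prolactin relatives first found in growing mouse cells, all fell, and Prl2c2 stood at 137, 154 and 157 CPM at 12 h and at 47.6, 56.6 and 51.5 CPM at 24 h. These genes are close copies of each other and may share reads. Of 20 clock genes 6 rose and 9 fell. The activator Arntl rose by 0.78, and the genes its protein switches on, Dbp, Nr1d2 and Per2, had log2 changes of -0.69, -0.60 and -0.56. Of 21 tested genes of atrophy and autophagy 11 rose and 2 fell. Trim63 and Fbxo32, ubiquitin ligase genes known from muscle wasting, rose, with log2 changes of 1.40 and 1.17.

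Among transcripts that are not protein-coding, the largest rise at an average log2 CPM of 3 or more was in the small nuclear RNA Gm24497, at 3.90, 4.94 and 12.4 CPM at 12 h and at 56.5, 19.7 and 34.3 CPM at 24 h. Both groups were widely spread but did not overlap (log2 change 2.37 ± 0.49). The lincRNA Gm28653 rose from 16.9, 17.7 and 20.1 CPM to 54.7, 54.2 and 56.4 CPM. Mir22hg, host gene of a microRNA, rose by 1.10, and Neat1, the scaffold of paraspeckles, by 0.86, or 0.64 without the third 24 h library. Brip1os, antisense to Brip1, fell by 1.21, and Brip1 itself fell by 1.98 on the log2 scale. The libraries keep strand, but no source used here gives the strand setting of the counting, so reads of the pair cannot be assigned with certainty. Gm42418 was called lower with a log2 change of -1.40, and 1 of its 12 h libraries stood at 2090 CPM against 634 and 669 CPM in the others.

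The step was then set against the first 12 h in differentiation medium. From growth medium to 12 h, 5353 genes were called (35%), 17.8% higher and 17.2% lower. The change of the second step exceeded that of the first in 2802 genes (18.3%) and fell below it in 2846 (18.6%), by a test of the difference itself in the same fit. The steps share the 12 h libraries, once as the end and once as the start, so a deviation of those libraries moves the 2 changes in opposite directions. Their values are therefore given side by side.

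Cell cycle genes turned between the steps. Of the 42 mitosis genes 41 rose in the first 12 h (median log2 change 0.51), and all 42 then fell, with the difference called below 0 in all 42. The DNA replication genes had a median of 0.18 in the first step, with 29 higher and 5 lower, and the difference was called in 47 of 48. Ccna2 had a mean of 170 CPM in growth medium. It rose by 0.64 on the log2 scale to 12 h and had a change of -1.64 after it, a difference of -2.28 (edgeR adjusted p = 1.1e-15). From 24 to 48 h Ccna2 had a log2 change of -0.03 and was not called, and the replication list had a median of -0.06. Mcm5 had a log2 change of 0.13 in the first step, not called. The replication-dependent histones had a median of -0.13 in the first step, -2.19 in the second and 0.47 from 24 to 48 h.

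Sterol genes rose in both steps. The cholesterol synthesis list had a median log2 change of 1.32 in the first 12 h and of 1.29 in the second, and all 20 genes rose in each. In 7 genes the second change was the larger and in 7 the smaller. Insig1 rose by 2.16 and then by 1.48, less in the second step. Scd1 rose by 0.62 and then by 1.99, larger in the second. From 24 to 48 h the list had a median of -0.37.

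The amino acid supply and ATF4 list had a median log2 change of -0.56 in the first step and of -0.91 in the second. The second change lay below the first in 23 of the 44 genes and above it in 8, among them the stress factor gene Ddit3, with -1.24 and then -0.57. Slc7a11 had a mean of 46.7 CPM in growth medium and changes of -1.45 and -2.41, and from 24 to 48 h its log2 change of 0.24 was not called. Shmt2, Asns and Phgdh had changes of -0.33, -0.32 and -0.24 in the first step against -2.12, -2.0 and -1.98 in the second. Id1 had log2 changes of -1.27 and then -1.21, and the difference of 0.05 was not called (edgeR adjusted p = 0.82).

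Muscle genes differed in how they divided their rise between the steps. Myog rose by 0.90 and then by 1.64, a difference of 0.73 (edgeR adjusted p = 3.8e-05). Mymk rose by 0.51 and then by 1.78. Acta1 rose by 1.11 and then by 1.27, a difference that was not called (edgeR adjusted p = 0.4). The Z-disc list had a median log2 change of 0.23 in the first step and of 1.16 in the second, with the difference above 0 in 17 genes and below in 1. The calcium list had -0.02 and 1.05, with 17 above and 0 below. From 24 to 48 h the medians were 1.47 for the Z-disc list, 1.04 for the calcium list and 2.00 for the myosins. Myod1 had a mean of 47.0 CPM in growth medium. It fell by 0.86 in the first step before rising by 0.58, and Mef2c, which was not called here, rose by 0.53 in the first step and by 1.08 from 24 to 48 h.

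**Figure D4:**
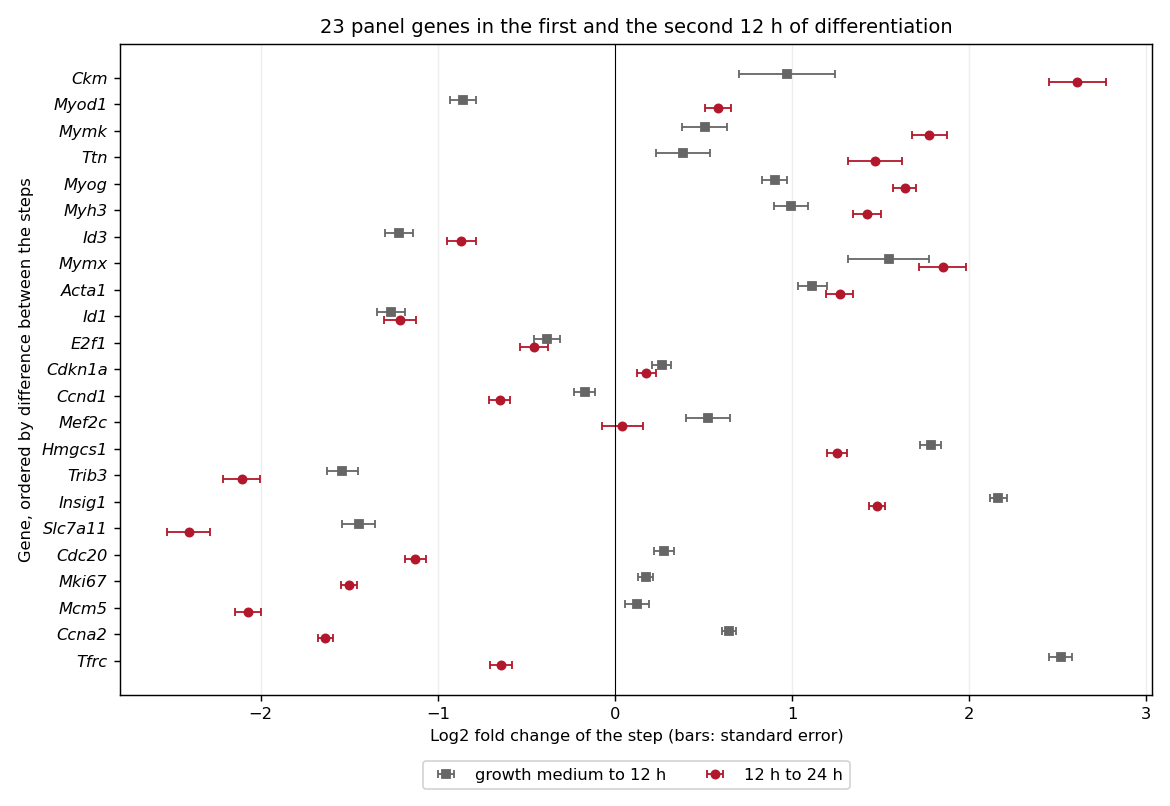
Log2 fold change of 23 panel genes from growth medium to 12 h (grey squares) and from 12 h to 24 h (red circles) with the standard error of the fit as bars, ordered by the difference between the steps. Ckm and Myod1 are at the top; Ccna2 and Tfrc, at the bottom, lie right of 0 in the first step and left of it in the second. The steps share the 12 h libraries.

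At an average log2 CPM of 3 or more, the largest differences between the steps were those of Tagln below 0 and Polr2a above 0. Tagln rose by 1.67 in the first step and had a log2 change of -2.01 in the second, a difference of -3.68. Tfrc, the transferrin receptor through which cells take up iron, rose from a mean of 60.6 CPM in growth medium by 2.52 and then fell by 0.64 on the log2 scale, from 321, 348 and 373 CPM to 221, 239 and 206 CPM. Its 24 h libraries lay below all 12 h libraries and above the growth medium mean. Ska1 and Esco2, of the kinetochore and of cohesion, had differences of -3.01 and -2.96. Dcn had changes of -0.13 and 2.31. Anpep, a membrane aminopeptidase, had changes of -1.33 and 1.11, the latter 0.85 without the third 24 h library. Polr2a, the largest subunit of RNA polymerase II, stood at 16.4, 14.8 and 16.2 CPM at 12 h and at 16.3, 12.4 and 47.2 CPM at 24 h. Its log2 change from 12 h was 0.67 with all libraries, not called, and -0.15 without the third 24 h library. The larger part of its difference between the steps came from a log2 change below 0 from growth medium to 12 h. The difference without the third 24 h library is not given here.

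The 84 genes that stood highest in the third 24 h library were followed with and without it. They were picked for their high values in that library, so a smaller change without it is fixed by the choice. With all libraries 52 were called higher and 1 lower, with a median log2 change of 0.48. Of all genes tested, 27.8% were called higher and 26.5% lower. Without the third 24 h library 37 of the 84 were called higher and 6 lower, with a median of 0.17. In that fit 3824 of 15565 genes tested were called higher and 3816 lower. Kmt2d, a histone methyltransferase, stood at 30.4, 24.2 and 70.4 CPM at 24 h and had a log2 change of 0.98, or 0.36 without that library. Lrp1, a large endocytic receptor, had 0.57, and 0.06 without the library, which was not called (edgeR adjusted p = 0.589). What sets this library apart was not tested.

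**Figure D5:**
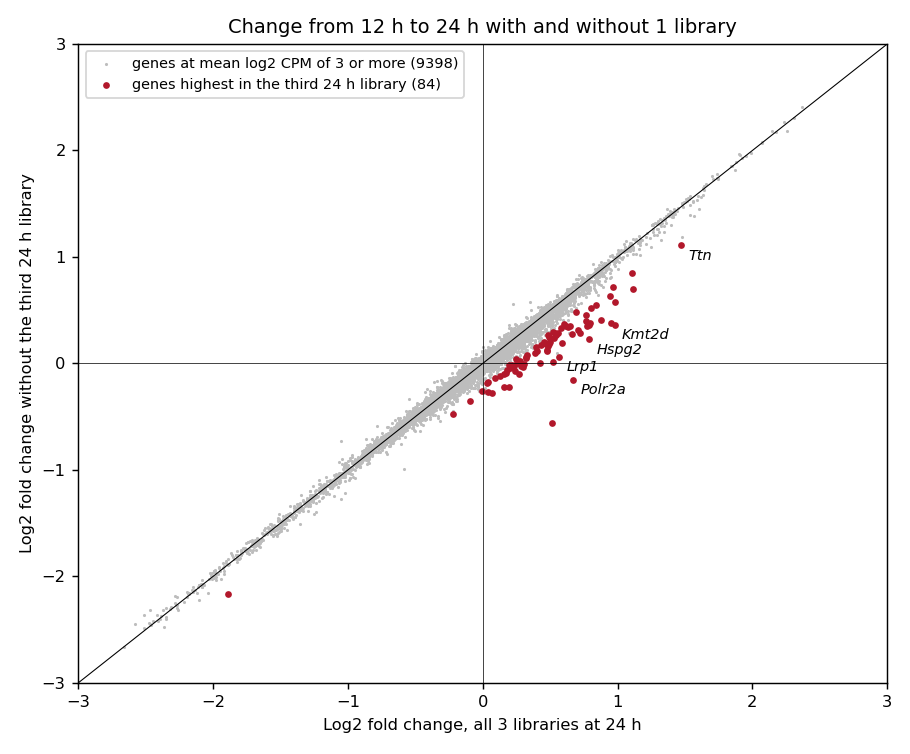
Log2 fold change of 24 h over 12 h without the third 24 h library (vertical axis) against the same with all 3 libraries (horizontal axis), for 9398 genes averaging a log2 CPM of 3 or more in grey and the 84 protein-coding genes highest in that library in red; the diagonal marks equal values. Grey points lie along the diagonal, and red points lie below it, with Polr2a under 0 on the vertical axis. The red genes were picked for high values in that library, which places them below the diagonal.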

How the data were processed

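RNA-seq was measured in 18 libraries, and this comparison rests on the 3 at 12 h and the 3 at 24 h, grouped by their titles. The deposited table holds the authors' unscaled read counts, whole numbers, by gene, with Ensembl identifiers, biotypes and symbols. The submitters' processing notes name STAR, RSEM, DESeq2 and build mm10 for RNA-seq, without the role of each, and Bowtie2 2.2.6 and MACS2 2.2.7 for the deposited ATAC-seq peaks, of which only the intervals were used, with an overlap of at least 1 base. No source used here says how whole numbers were made from RSEM, which estimates counts.

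Genes were kept by edgeR's filterByExpr by group. A quasi-likelihood F test in edgeR 4.0.16 (R 4.3.3) was run on the 18 libraries at once, after TMM scaling and with no factor other than group, which left 12 residual degrees of freedom and a common biological coefficient of variation of 0.0621, and p-values were adjusted by Benjamini-Hochberg over all genes of a contrast. The SE of a log2 change is its size over the root of its F value. The steps were compared by the contrast of their changes. CPM are counts over the TMM-scaled library size. On simulated counts for 24 h against 12 h (14974 genes, 200 changed), 85.1% of the genes set 1.5-fold apart were found, 92.5% at 2-fold and 66 of 66 at 4-fold, with 14 unchanged genes called.

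Counting noise did not cover the differences within replicate pairs (chi-square 7.19 to 53.2 per degree of freedom), so no libraries were merged. Same-numbered 12 h and 24 h libraries had correlations of their deviations of 0.089, 0.002 and 0.025, against -0.083 to 0.031 for different numbers. With 3 libraries at each time, values this small cannot decide whether the replicate numbers pair the samples. The main fit has no pairing.

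The 59 gene lists (1294 genes), the panel of 24 genes and the motifs were chosen with earlier results of these data known. Named genes were the panel, the 15 genes with the largest rise and fall at an average log2 CPM of 3 or more, at most 4 called members in the list's main direction and 3 against it per list, 5 non-coding genes each way, 5 genes each way by the difference between the steps, and those standing highest in 1 library. Further list members were named after their values were seen, and some genes that the rule picks are not reported here. Promoter windows (250 bases before the start site) came from the RefSeq table of GRCm38.p6, in which 10068 of the genes tested matched by symbol. 4 genes were found under older symbols in the count table, among them Mymk and Mymx. Alternatives were other scalings and filters, DESeq2 1.42.0, protein-coding genes only, the 6 libraries only, a replicate block and leaving out each library.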

Additional observations from a re-analysis of the deposited data

Results flagged for a closer look

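In 5 genes of the panel the change was called in opposite directions in the first and the second 12 h, and the difference between the steps was itself called in edgeR's test. The values are the log2 change from 12 to 24 h minus that from growth medium to 12 h. It was 1.44 for Myod1, which fell and then rose. It was -2.28 for Ccna2, -1.68 for Mki67 and -1.41 for Cdc20, genes of cell division that rose and then fell. It was -3.16 for Tfrc, the transferrin receptor, which rose and then fell. Both steps use the same 12 h libraries, so part of any deviation of those libraries enters with opposite sign, and how much of the differences this makes was not tested. For the second step, the 12 h and 24 h libraries overlapped in none of the 5 genes, which were picked for a call in this step. Of all genes tested, 29.5% had all 24 h libraries above the 12 h libraries and 27.4% had them all below.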

How the results depend on the processing

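Across the alternatives, 3489 to 4953 genes were higher at 24 h and 3513 to 4427 lower, and every count of calls stayed within 1.5 times its main value. Upper-quartile scaling gave the most uneven split, with 58.5% of calls higher against 51.2% in the main fit. DESeq2 called 3932 higher and 3857 lower. Leaving out 1 library gave 3728 to 4006 higher and 3769 to 3973 lower. The replicate block, used although a pairing of the libraries by number could not be decided, gave 4198 higher and 3982 lower. Leaving out Rn7s1 and Rn7s2, an alternative chosen after seeing the data, gave 3856 and 4427. Of the named genes' values under alternatives, 5519 kept direction and side of the threshold, 118 lost the call, 7 gained it and 4 turned. The 4 were for genes not called: Mef2c (-0.056 to 0.16 over the fits that leave out 1 library), Polr2a (-0.15 to 1.00) and Gm20388 (-0.56 to 1.25). Mef2c turned without the first 12 h library (-0.056) and without the third 24 h library (-0.020), the others without the latter. Besides the genes named in the report, that library decided the calls of Ireb2, Nipbl, Hdac8, Obsl1 and Lmod1. The cause was not tested. Changes under 1.5-fold and genes near 1 CPM are the least certain at this depth.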

Other observations

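Several other gene groups had members that changed between 12 h and 24 h, as did 54.3% of all genes tested. The counts of this section stand beside 27.8% of all genes tested called higher and 26.5% called lower. Of 23 tested interferon response genes 13 rose and 4 fell (median log2 change 0.36), with log2 changes of 1.08 for Ifit3 and 0.98 for Gbp2 and of -0.73 for Tap1, and 9 of the list's 32 genes were too low to test. The alarmin Il33 rose from 13.6, 15.9 and 15.7 CPM to 42.1, 44.8 and 41.0 CPM, while of 21 tested chemokine and cytokine genes 9 rose and 6 fell, and Ccl2 and Ccl7 fell, with log2 changes of -1.03 and -0.89. Of 20 tested apoptosis genes 8 rose and 7 fell. Casp12, a caspase of the endoplasmic reticulum reported to be active in differentiating myoblasts, rose from 32.1, 32.1 and 34.3 CPM to 102, 108 and 96.4 CPM, and the BH3 genes Bmf and Bcl2l11 rose by 1.38 and 0.83. The p53 targets showed no common direction, with 7 higher and 7 lower of 17.

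Of 17 tested splicing regulators 9 rose and 6 fell (median log2 change 0.15). Celf2, Rbfox2 and Mbnl2 rose by 0.82, 0.49 and 0.40 on the log2 scale, and Srsf1, Hnrnpa1 and Ptbp1 had log2 changes of -0.64, -0.49 and -0.27. Srsf1 stands on 2 rows of the table, so its reads may be split. Of 13 tested imprinted genes 8 rose and 0 fell. Mest, an imprinted hydrolase, stood at 2.94, 2.56 and 3.36 CPM at 12 h and at 17.0, 15.3 and 16.7 CPM at 24 h, a log2 change of 2.47 ± 0.09. H19 and Igf2, neighbours in 1 imprinted domain, rose by 0.71 and 0.66. In the transforming growth factor beta and BMP list 14 of 29 rose and 8 fell, with Inhbb and Tgfb2 at log2 changes of 1.22 and 1.16. In the Wnt list 13 of 25 rose and 3 fell, with Axin2, a feedback target of the pathway, up by 1.33 and Wnt4 at a log2 change of -0.98. Gm20388, a locus with protein-coding biotype, stood at 2.57, 11.3 and 30.7 CPM in the 24 h libraries and at 8.07, 4.41 and 18.7 CPM at 12 h, without a call.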
